A study of Homo sapiens with 4 samples.

Results

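Members of the epithelial-mesenchymal transition (EMT) machinery were followed in RNA sequencing of TPC1 cells, and they were taken by name from the gene column of the deposited table. They were the zinc finger repressors SNAI1 and SNAI2, the zinc finger homeobox factors ZEB1 and ZEB2, the basic helix-loop-helix factors TWIST1 and TWIST2, the cadherins CDH1 and CDH2, the intermediate filament gene VIM and the adhesion molecule gene EPCAM. All 10 genes were found among the 20372 rows, with 1 row each. Of these, 8 had enough reads to be tested, and CDH1 and EPCAM did not.

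TPC1 is an established human papillary thyroid cancer line, a single line, and it carries the CCDC6-RET fusion in both groups. One group (2 libraries) received the RET kinase inhibitor BLU6864 for 6 h, and the other (2 libraries) the solvent DMSO. The medium in both was DMEM with serum. The labels give BLU6864 at 100 micromolar, whereas the study's methods name a nanomolar dose, so the dose is uncertain. For DMSO no time stands in the labels, while the column names of the table read 24 h. Effects of the inhibitor and of time in culture therefore cannot be told apart. Both BLU6864 titles carry the mark re-analysis, which neither DMSO title has. Whatever difference that mark stands for cannot be told apart from the inhibitor either. Nothing in the labels says that the 2 libraries of a group came from separate cultures. The p-values rest on variation between these libraries, estimated with information shared over all tested genes. They may therefore not reflect variation between cultures.

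In an EMT, epithelial cells loosen their cadherin junctions and take on a spindle shape and the ability to migrate. SNAIL, ZEB and TWIST proteins drive it by binding short E-box sequences (CANNTG) in target promoters, where SNAIL and ZEB proteins repress epithelial genes such as CDH1 and EPCAM. CDH2 and VIM are the usual mesenchymal counterparts, and growth factor signalling through the ERK kinases is one of the inputs known to raise several of these factors.

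The 3 factors that fell with BLU6864 were SNAI2, ZEB1 and TWIST2. The factor that rose was TWIST1, although the alternative test DESeq2 did not call it (adjusted p = 0.149). SNAI2 fell 15.3-fold, ZEB1 by 0.99 on the log2 scale and TWIST2 by 0.72 on that scale. Their paralogs SNAI1 and ZEB2 did not pass the test. CDH2 and VIM did not pass either, although DESeq2 called VIM lower (adjusted p = 0.0208). CDH1 and EPCAM were close to 0 reads in every library.

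Counts over protein-coding genes ranged from 23750509 to 28305571 per library. Levels here are the authors' normalized read counts (counts divided by 1 size factor per library), and changes are log2 fold changes of BLU6864 over DMSO ± SE from edgeR's quasi-likelihood test. A gene was called at a Benjamini-Hochberg adjusted p under 0.05 over all 12696 tested genes. Of these genes 5364 (42.2%) were called, 20.3% higher and 22% lower, with a median change of 0.01. Among the 8 tested members 1 was higher and 3 were lower, which is 50% called, close to the share over all genes. In 7 of the 8 the groups did not overlap, which was true of 70.8% of all tested genes. In bulk RNA, a smaller share of cells with a transcript and less transcript per cell cannot be told apart.

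**Figure D1:**
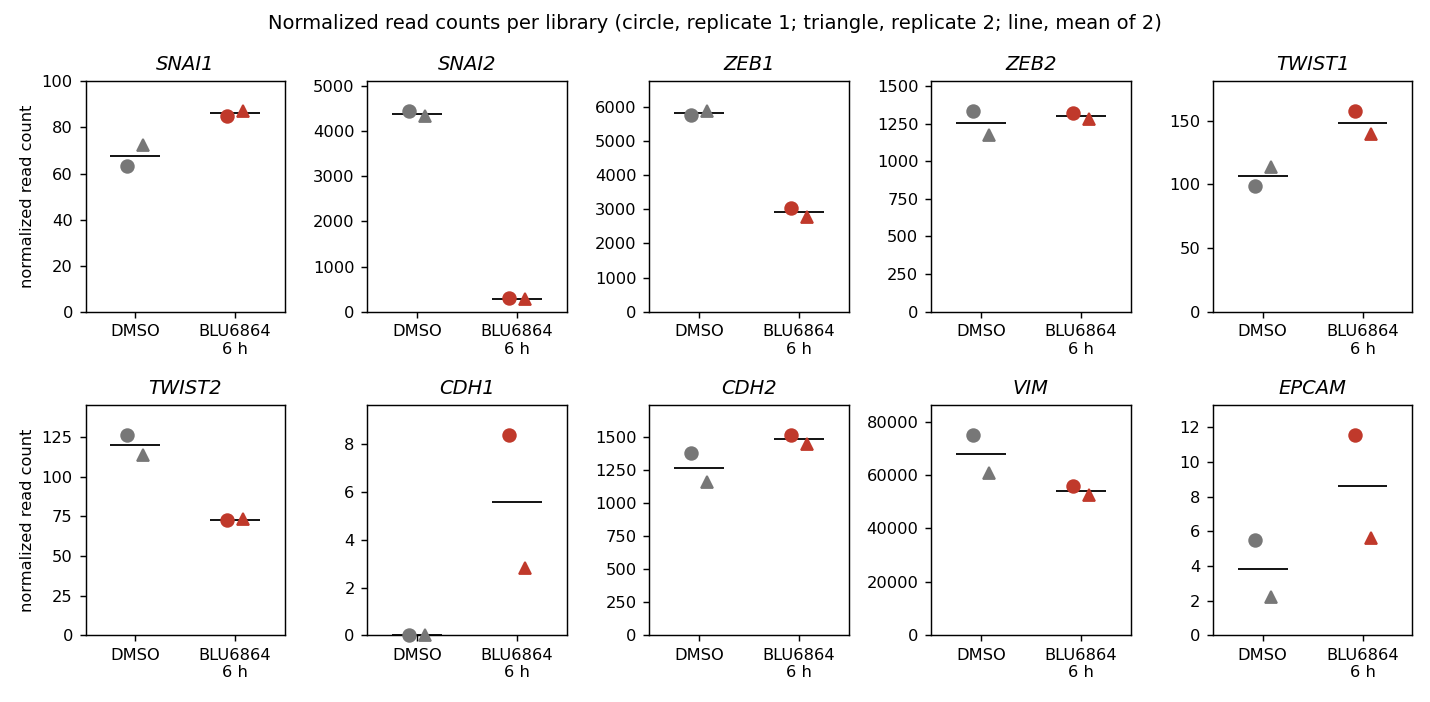
Normalized read counts (vertical axis, linear from 0, a different scale in each panel) of the 10 genes in the 2 DMSO libraries (grey) and the 2 BLU6864 libraries (red), with the mean of each group as a line. SNAI2, ZEB1 and TWIST2 lie lower in both BLU6864 libraries, TWIST1 lies higher, and CDH1 stays under 9 normalized reads.

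SNAI2 encodes SLUG, a repressor that binds E-boxes. It lies on chromosome 8, 49830249 to 49834299 (hg19, ENSG00000019549). Replicates 1 and 2 of BLU6864 had normalized counts of 295 and 277, against 4440.1 and 4327 for replicates 1 and 2 of DMSO. Both BLU6864 libraries were thus far under both DMSO libraries, and the replicates of each group were close to one another. The means were 286 ± 12.7 and 4383 ± 80.3 (SD, n = 2 per group), a change of -3.93 ± 0.12 (adjusted p = 1.02e-18). Only 5 of the 12696 tested genes had a more negative fold change. The change lay between -3.97 and -3.89 under 11 alternative fits, including those without each library.

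SNAI1, which encodes SNAIL, the founding member of the family (chromosome 20, 48599536 to 48605423), was read far less. Its normalized count was 85.1 and 87.1 with BLU6864 and 63.2 and 72.2 with DMSO. The groups did not overlap, but the change of 0.36 ± 0.20 did not pass (adjusted p = 0.161, from 0.0996 to 0.487 over the 11 alternative fits). In reads, each library held 66 to 93 counts of SNAI1. SNAI3, the remaining family member, was lower still, at 19.1 ± 4.75 with BLU6864 and 21.7 ± 4.32 with DMSO, and did not pass (-0.18 ± 0.36, adjusted p = 0.722).

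ZEB1, a repressor with zinc fingers at both ends of the protein (chromosome 10, 31607424 to 31818742), was lower with the inhibitor. It stood at 3042 and 2780 with BLU6864 and at 5748 and 5871 with DMSO, and the gap between the groups was many times the spread within them. The means were 2911 ± 185 and 5809 ± 86.6, a change of -0.99 ± 0.11 (adjusted p = 3.64e-08, at most 8.08e-05 over the alternatives). ZEB2 (chromosome 2, 145141648 to 145282147) stood at 1321 and 1283 with BLU6864 and at 1333 and 1175 with DMSO. Here the groups overlapped, and the change was 0.06 ± 0.11 (adjusted p = 0.696, from 0.219 to 0.892 over the alternatives).

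Only 5 of the 10 genes had promoter windows in the RefSeq sequences used here (GRCh38.p14, 250 bases before to 50 after a start), with 12 windows in all. The E-box CACCTG, read on both strands and contained in CANNTG, occurred 4 times in 2 of the 7 ZEB1 windows and in 0 of the 5 windows of ZEB2, TWIST2, CDH2 and VIM. Of all 35116 windows, 20.6% held CACCTG, 68.7% CANNTG and 7.71% the AP-1 site TGANTCA, which occurred 1 time in the members' windows, in 1 of the 2 CDH2 windows. Both ZEB1 windows are shown since ZEB1 was among the genes that fell and its family reads such sites, with each CANNTG in capitals. They lie on the plus strand of chromosome 10, at 31318167 to 31318466 and at 31318966 to 31319265. A match is a sequence feature, and no binding was measured.
ZEB1 first window: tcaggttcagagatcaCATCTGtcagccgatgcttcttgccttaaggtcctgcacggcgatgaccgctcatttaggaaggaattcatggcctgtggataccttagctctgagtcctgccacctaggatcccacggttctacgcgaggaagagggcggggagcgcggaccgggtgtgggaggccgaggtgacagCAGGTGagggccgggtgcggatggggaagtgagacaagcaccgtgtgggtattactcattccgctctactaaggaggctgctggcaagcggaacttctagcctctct
ZEB1 second window: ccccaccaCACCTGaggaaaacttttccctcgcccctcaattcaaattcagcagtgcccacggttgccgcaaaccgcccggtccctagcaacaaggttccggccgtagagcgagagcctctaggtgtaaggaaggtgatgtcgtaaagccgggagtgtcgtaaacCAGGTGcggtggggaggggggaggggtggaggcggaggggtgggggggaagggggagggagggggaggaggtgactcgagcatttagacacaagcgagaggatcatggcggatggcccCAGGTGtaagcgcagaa

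TWIST2 (chromosome 2, 239756673 to 239795893) stood at 72.5 and 73.1 with BLU6864 and at 126 and 114 with DMSO, so both treated libraries were lower. The change was -0.72 ± 0.19 (adjusted p = 0.00299), and the call held in all 11 alternative fits, although narrowly when BLU6864 replicate 1 (adjusted p = 0.0498) or 2 (adjusted p = 0.0473) was left out. TWIST1, like TWIST2 a factor of the embryonic mesoderm, was at 158 and 139.6 with BLU6864 and at 98.9 and 114 with DMSO. It was higher in both treated libraries, by 0.49 ± 0.17 (adjusted p = 0.0231). The adjusted p of TWIST1 rose to 0.254 and 0.084 when BLU6864 replicates 1 and 2 were left out in turn, to 0.0972 when DMSO replicate 1 was, and to 0.149 in DESeq2, so that none of these fits called it. The lowest value over the alternatives was 0.00782. The deposited TWIST1 row covers 96682 bases of chromosome 7 (19060614 to 19157295), a long span for a compact gene, and no other row of the table overlaps it.

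**Figure D2:**
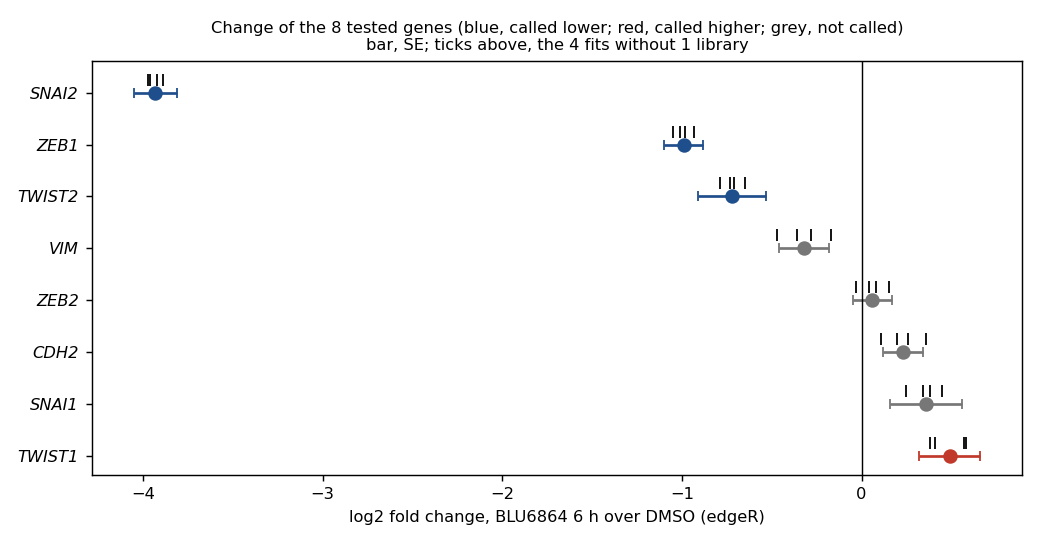
Log2 fold change of BLU6864 over DMSO (horizontal axis) for the 8 tested genes, with the SE as a bar and the 4 fits without 1 library as ticks. SNAI2 at -3.93 stands apart from the other 7, which lie between -0.99 and 0.49, and only for ZEB2 do the fits without 1 library fall on both sides of 0.

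The balance of reads inside each pair differed between the groups. DMSO replicates 1 and 2 held 70.3 and 59.9 SNAI2 reads per SNAI1 read, and those of BLU6864 held 3.47 and 3.18. ZEB1 reads per ZEB2 read went from 4.31 and 4.995 with DMSO to 2.303 and 2.17 with BLU6864. TWIST1 reads per TWIST2 read were 0.783 and 1 with DMSO and 2.17 and 1.91 with BLU6864. The exact 95% binomial intervals of the treated and control libraries did not meet for any of the 3 pairs. These intervals cover counting error only. For ZEB1 per ZEB2, the intervals of the 2 DMSO libraries (4.07 to 4.57 and 4.68 to 5.34) did not meet either. Intervals that do not meet therefore cannot tell treatment from differences between replicates. A test of these ratios over 2 libraries against 2 was not run.

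**Figure D3:**
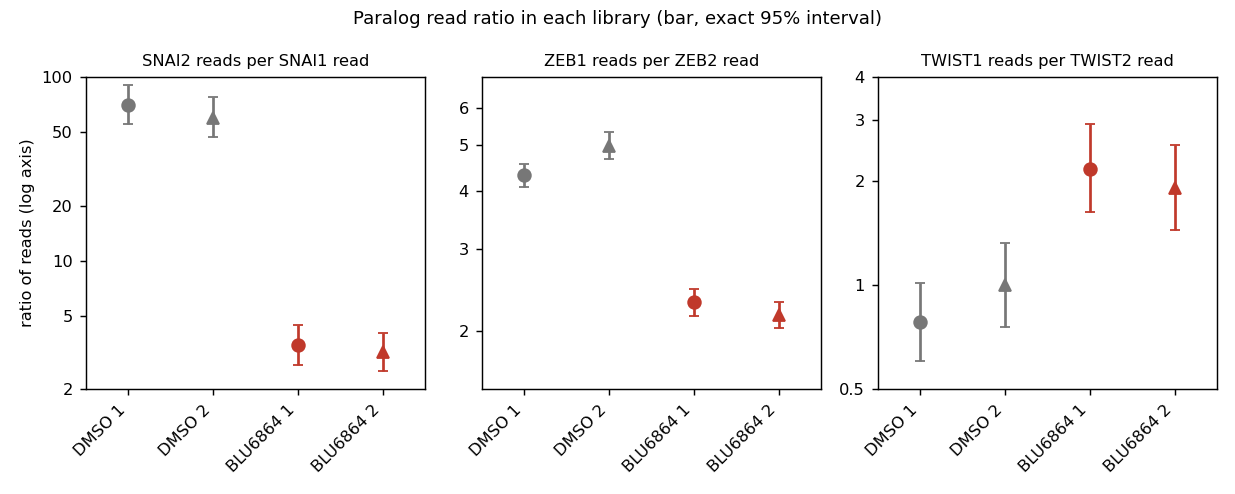
Reads of one paralog per read of the other (vertical axis, log scale) in each library, DMSO in grey and BLU6864 in red, with exact 95% binomial intervals for counting error. All 3 ratios separate the groups, most of all SNAI2 per SNAI1, at 59.9 and 70.3 against 3.18 and 3.47.

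CDH2, N-cadherin (chromosome 18, 25530930 to 25757410), stood at 1519 and 1453 with BLU6864 and at 1379 and 1159.9 with DMSO. It was higher in both treated libraries but did not pass (0.23 ± 0.11, adjusted p = 0.0943). It did pass without DMSO replicate 1 (0.36, adjusted p = 9.05e-04) and with scaling by library totals (adjusted p = 0.0469), and the highest adjusted p was 0.433. Without DMSO replicate 2 its change was 0.11. VIM, the filament protein vimentin (chromosome 10, 17270258 to 17279592), was at 55860.5 and 52343 with BLU6864 and at 75034 and 60741 with DMSO. The treated libraries were lower, and the DMSO libraries were far apart from each other. VIM did not pass (-0.32 ± 0.14, adjusted p = 0.0747), but leaving out DMSO replicate 2 gave -0.47 and an adjusted p of 0.00213. VIM was also called in DESeq2 (adjusted p = 0.0208), in the fit with every row kept (adjusted p = 0.036) and in the one with the replicate block (adjusted p = 0.0132). Without DMSO replicate 1 the change of VIM was -0.17, and without BLU6864 replicate 2 its adjusted p was 0.412, the highest.

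CDH1, E-cadherin, the adhesion receptor of epithelial junctions (chromosome 16, 68771128 to 68869451), had 8 and 3 reads in BLU6864 replicates 1 and 2, and 0 in either DMSO library. Set against a floor of 3 reads over the 2 DMSO libraries, the 11 treated reads give a ratio of 3.76 per read sequenced. That ratio carries no counting error for the 11 reads, so it is not a lower limit of the change. CDH1 did not pass the filter on low counts. In a fit without that filter it was called higher (adjusted p = 0.015), on those 11 reads. Of these, 8 came from BLU6864 replicate 1, and without that library the 3 reads left equal the floor, so that no fold can be given. EPCAM, an epithelial adhesion molecule (chromosome 2, 47572297 to 47614740), had 11 and 6 reads in the treated libraries and 6 and 2 in the DMSO libraries. The ratio was 2.18 with an exact 95% interval from 0.892 to 5.84, which covers counting error and includes 1, and without the filter EPCAM had an adjusted p of 0.308. Together CDH1 and EPCAM had 36 reads over all 4 libraries.

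Levels can be set side by side between genes once divided by transcript length (MANE Select transcripts in GENCODE v44, which may not be the forms these cells use). In normalized counts per kilobase, the order in DMSO was VIM (28199 to 34835), SNAI2 (1985 to 2037), ZEB1 (968 to 989), CDH2 (289 to 344), ZEB2 (127 to 144), TWIST2 (84.8 to 94.1), TWIST1 (60.7 to 69.8), SNAI1 (37.04 to 42.4), EPCAM (1.42 to 3.55) and CDH1 at 0. With BLU6864, SNAI2 was at 127 to 135 per kilobase, below ZEB1 (468 to 512), CDH2 (362 to 378) and ZEB2 (139 to 142). TWIST1 (85.6 to 96.7) then stood above TWIST2 (54.02 to 54.4), and SNAI1 (49.9 to 51.1) was next, close to TWIST2. With only 2 libraries a group, this order is a description. The deposited TWIST1 row spans 96682 bases, and the exons counted for it are not known. The place of TWIST1 in the order is therefore uncertain.

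Genes whose profile over the 4 libraries was nearest to that of a called member were also listed, by Euclidean distance of centred log2 values. For SNAI2 they were NLRP3 (distance 0.164), THBD (0.1699) and STC1 (0.187), with changes of -4.01, -3.85 and -3.77. For ZEB1 they were SLC7A7, CLMP and ATP13A3 (distances 0.0273, 0.0372 and 0.0478). For TWIST2 they were YEATS2, POLRMT and ARAP3 (-0.70, -0.69 and -0.73), and for TWIST1 they were PLA2G4A, PIGB and ZNF548 (0.50, 0.51 and 0.51). With 4 libraries in 2 groups, such a distance mostly reflects the size of the fold change.

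Of 21 tested genes among 27 other transcription factors associated with EMT, 7 rose and 5 fell (median -0.13, against 0.01 over all tested genes). Over all tested genes, 20.3% were called higher and 22% lower. The counts of this list and of those below are to be read beside these shares. Transcripts of the ID genes, whose proteins hold E proteins away from DNA, rose. ID3 went from 52.99 ± 5.31 to 179.7 ± 25.3 (1.76 ± 0.19, adjusted p = 2.87e-08) and ID1 from 735 ± 53.4 to 1544 ± 98.04 (1.08 ± 0.11). ID2, named after its values were seen, rose by 0.96 ± 0.11. The E protein genes themselves, TCF3 (-0.14), TCF4 (-0.19) and TCF12 (0.06), also named afterwards, did not pass. FOXQ1, a forkhead factor, rose by 1.13 ± 0.16. SOX9 fell from 616 ± 163 to 169 ± 10.9 (-1.87 ± 0.16), the chromatin protein gene HMGA2 from 6557 ± 58.8 to 2547 ± 84.6 (-1.36 ± 0.11), and RUNX1 by 0.67 on the log2 scale.

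Of 12 tested genes among 22 regulators that maintain the epithelial state, 6 rose and 2 fell (median 0.32). The ETS factor ELF3 rose from 457 ± 6.15 to 2881 ± 83.3 (2.66 ± 0.11, adjusted p = 2.72e-16). Its relatives EHF (from 5.11 ± 2.05 to 30.1 ± 2.46) and ELF5 (from 2.01 ± 0.25 to 29.8 ± 2.42) rose from very low counts. EHF and ELF5 reached the filter on low counts through the BLU6864 libraries alone, so they could enter the test only by being higher there, and without them 4 of 10 rose and 2 fell (median 0.12). The list's lower count was 1 without BLU6864 replicate 1, BLU6864 replicate 2 or DMSO replicate 1. FOXA2 (-1.37 ± 0.41) and SPDEF (-1.09 ± 0.31) fell, but DESeq2 called neither. Leaving out BLU6864 replicate 1 took FOXA2 to an adjusted p of 0.206, and leaving out BLU6864 replicate 2 or DMSO replicate 1 ended the call of SPDEF (adjusted p up to 0.281). ESRP1, a splicing regulator, and the transcription factors GRHL2 and OVOL1, all named after their values were seen, had 0 reads in each library.

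**Figure D4:**
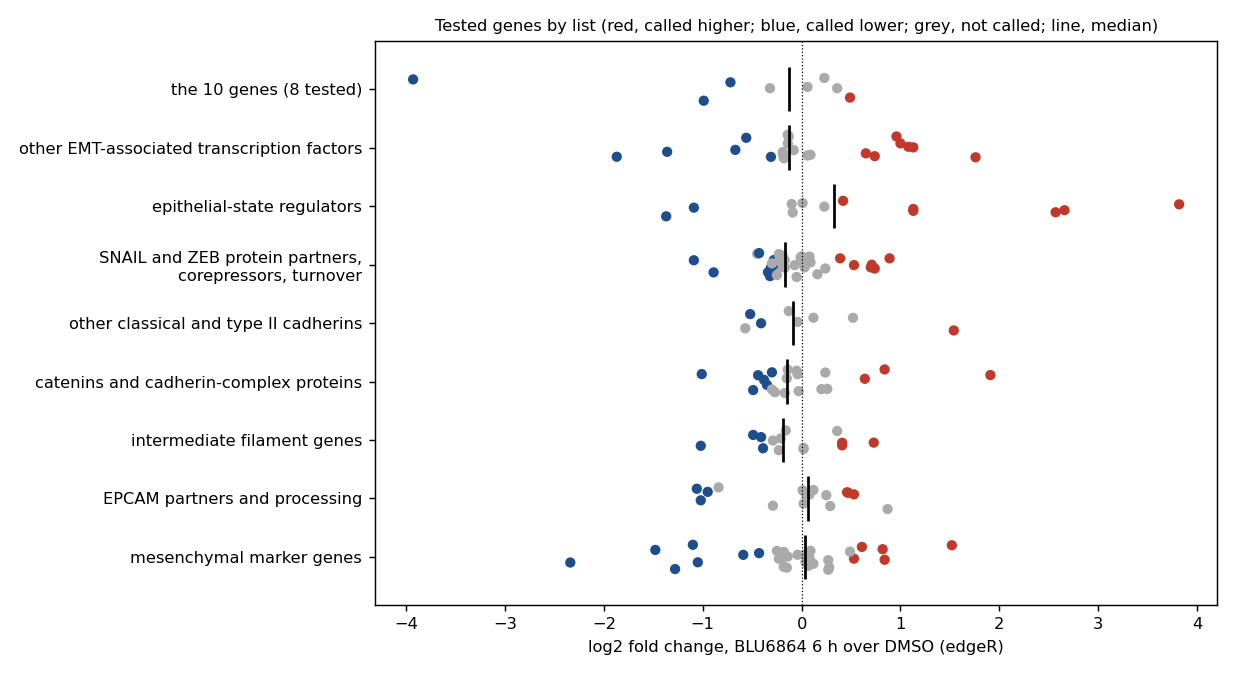
Log2 fold change (horizontal axis) of each tested gene in 9 lists, with genes called higher in red, genes called lower in blue and the median as a line (vertical positions within a list are random). SNAI2 at -3.93 lies beyond every other gene shown, and ELF5, EHF and ELF3 lie highest.

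All 36 genes for partners, corepressors and turnover factors of SNAIL and ZEB proteins were tested, and 6 rose and 8 fell (median -0.17). The shares over all tested genes were 20.3% higher and 22% lower. The lower count was 2 without either BLU6864 replicate 1 or 2 and 16 without DMSO replicate 2. FBXO45, part of a ubiquitin ligase for EMT factors, fell from 1556 ± 69.8 to 732 ± 55.9 (-1.09 ± 0.11), and the kinase gene PAK1 by 0.89 on the log2 scale. EHMT2, a histone H3 lysine methyltransferase that works with SNAIL, rose by 0.89 ± 0.11, the phosphatase gene CTDSP2 by 0.74 ± 0.11 and the kinase gene PRKD1 by 0.71 ± 0.11. SMARCA4 was lower (-0.43 ± 0.12), a call lost when either BLU6864 replicate or DMSO replicate 1 was left out (adjusted p up to 0.115). The corepressor genes KDM1A (0.16), HDAC1 (-0.07) and SIN3A (-0.01), chosen with their values in view, did not pass.

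Of 20 other cadherins 8 were tested, with 1 higher and 2 lower (median -0.09), and the lower count was 1 without BLU6864 replicate 1 and 0 without BLU6864 replicate 2. The higher count was 2 without DMSO replicate 2. CDH16, a cadherin of kidney and thyroid epithelium, rose from 77.4 ± 13.5 to 225 ± 11.1 (1.54 ± 0.17, adjusted p = 4.56e-08). CDH6 (-0.52 ± 0.11) and CDH4 (-0.41 ± 0.11) fell, but CDH6 no longer passed once BLU6864 replicate 2 was left out (adjusted p = 0.0644), nor CDH4 once either BLU6864 library was (adjusted p up to 0.126). Of 20 tested catenins and other proteins of the cadherin complex, 3 rose and 6 fell (median -0.15), and the lower count was 2 without BLU6864 replicate 1 and 1 without BLU6864 replicate 2. The higher count was 5 without DMSO replicate 1. The nectin gene PVRL1 fell (-1.01 ± 0.13), while PKP4 (0.64 ± 0.11) and CTNNA2 (1.91 ± 0.37, from 10.1 ± 2.69 to 37.8 ± 3.07) rose. CTNNA1, the alpha-catenin of epithelial cells, was lower (-0.44 ± 0.13), a call lost without BLU6864 replicate 1 or 2 (adjusted p up to 0.268).

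Of 14 tested intermediate filament genes, 3 rose and 4 fell (median -0.19). The lower count was 1 without BLU6864 replicate 1 and 7 without DMSO replicate 2, and the higher count was 1 without BLU6864 replicate 2. KRT18, a keratin of simple epithelia, fell from 1767 ± 213 to 871 ± 39.9 (-1.02 ± 0.11, adjusted p = 3.52e-08), while its partner KRT8, chosen with its values in view, did not pass (-0.16). The deposited KRT8 and KRT18 rows overlap on chromosome 12, and the strand setting is not given, so their reads may be shared. KRT80 rose by 0.73 ± 0.15. Of 16 tested genes for EPCAM partners and processing, 3 rose and 3 fell (median 0.06), with 1 higher without BLU6864 replicate 1. The tight junction gene CLDN1 rose from 8848 ± 209.9 to 12739 ± 36.2 (0.53 ± 0.12), and FHL2 (-1.02 ± 0.11) and LEF1 (-0.95 ± 0.16), which act with the cleaved EPCAM tail, fell.

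Of 31 tested mesenchymal marker genes, 5 rose and 7 fell (median 0.03), beside 20.3% higher and 22% lower over all tested genes. The higher count was 3 without either BLU6864 replicate 1 or 2 and 8 without DMSO replicate 1. CNN1, among the genes that rose, reached the filter through the BLU6864 libraries alone. The WNT ligand genes WNT5A (-1.48 ± 0.11) and WNT5B (-1.28 ± 0.12) fell. S100A4 (0.82 ± 0.15) and the collagen crosslinking enzyme gene LOX (0.84 ± 0.19) rose. The fibronectin gene FN1, also chosen with its values in view, did not pass (-0.15).

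Of 15 thyroid follicular markers 8 were tested, with 1 higher and 5 lower, or 2 lower without BLU6864 replicate 2. TG, which encodes thyroglobulin, fell from 384 ± 32.03 to 212 ± 24.1 (-0.85 ± 0.14), and the transcription factor gene GLIS3 fell by 1.22 on the log2 scale. DIO1, which encodes an enzyme that activates thyroid hormone, rose from 2.01 ± 0.25 to 26.8 ± 0.77 (3.67 ± 0.56, adjusted p = 6.21e-06), and it reached the filter through the BLU6864 libraries alone. The thyroid transcription factor gene PAX8, named after its values were seen, fell from 26795 ± 919 to 20808 ± 1010.2 (-0.36 ± 0.13, adjusted p = 0.0256). That call was lost when BLU6864 replicate 2 was left out, and the change did not reach the study's threshold of 0.5. NKX2-1, TSHR and IYD, also named afterwards, had 0 reads in each library.

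Of other cell types, 3 of 10 fibroblast, 3 of 8 endothelial and 6 of 10 leukocyte markers were tested. PECAM1, an endothelial marker on the list, had no row in the deposited table. Calls were 2 higher and 0 lower for fibroblast, 1 higher and 1 lower for endothelial, and 1 higher and 3 lower for leukocyte markers. Of the fibroblast markers, COL1A1 (0.53 ± 0.15) and PDGFRB (0.66 ± 0.14) rose, but COL1A1 did not pass when either BLU6864 library was left out (adjusted p up to 0.0773). Of the endothelial markers, ROBO4 fell (-0.93 ± 0.13) and VWF rose on 4 to 16 reads a library (1.56 ± 0.57), a call lost in 4 alternatives (adjusted p up to 0.34). VWF reached the filter through the BLU6864 libraries alone. Of the leukocyte markers, CSF1R (-1.35 ± 0.24), ITGAX (-0.70 ± 0.12) and LCP1 (-0.52 ± 0.20) fell and CD14 rose (1.28 ± 0.31). LCP1 lost its call in 6 alternatives (adjusted p up to 0.402), and CD14 when BLU6864 replicate 1 was left out (adjusted p = 0.064). Summed normalized counts were 598 to 617 with BLU6864 and 383 to 421 with DMSO for fibroblast markers, 307 to 344 and 544 to 632 for endothelial markers, and 5096 to 5400.5 and 6078 to 6641 for leukocyte markers. ROBO4 (294 ± 20.3 with BLU6864 and 561 ± 64.03 with DMSO) made up most of the endothelial sum. CD68 (4579 ± 139 and 5374 ± 448), which did not pass, made up most of the leukocyte sum. The fibroblast genes DCN, COL1A2, COL3A1 and POSTN, the endothelial gene EMCN and the leukocyte gene CD3E had 0 reads in every library. These genes and CD68 were named after their values were seen, and other markers of the same lists did have reads. The part of the other markers in the results was not tested.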

How the data were processed

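The data comprised 4 RNA-seq libraries of TPC1, 2 with BLU6864 for 6 h and 2 with DMSO, grouped and numbered by their titles. Only the BLU6864 titles carry the mark re-analysis. Per the labels, TruSeq libraries were read as 50 bp single-end reads, although the study's methods describe paired-end reads. The submitters' processing notes name STAR 2.3, hg19 and DESeq2. Counting tool, annotation release and strand setting were not given in the sources used here, so reads of antisense or overlapping genes may be shared. The authors deposited raw counts per gene and library. The same deposited table holds a normalized signal, each count divided by 1 DESeq2 size factor per library. It also holds the authors' fold changes and p-values, which were not used. Where a symbol had several rows (90 repeats), the row with most reads was taken.

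The main test was the two-sided quasi-likelihood F test of edgeR 4.0.16 on counts (R 4.3.3), with filterByExpr, TMM factors and the group as its only term. The SE was derived from the F statistic. DESeq2 1.42.0 and limma 3.58.1 (voom) were alternatives, with other filters and scalings, a replicate block, the study's thresholds, and each library left out. The fits were tested on simulated data. No set test was run. Replicates of a group differed by more than counting noise (chi-square per gene 10.5 and 33.8). The members and lists were chosen with earlier results of these data known. From each list the 3 most negative and 3 most positive called genes were named, or without calls the 2 with most reads, and the text prints a part. For each called member, the 3 nearest profiles among genes with a mean of at least 100 normalized counts were named. A planned comparison of protein sequences was not made.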

Additional observations from a re-analysis of the deposited data

How the results depend on the processing

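The direction and call of SNAI2, ZEB1 and TWIST2 held in every alternative, so the count of members called lower stayed at 3 or, with VIM added, at 4. The count of members called higher (1) was TWIST1 alone. It was 0 with DESeq2 and 0 at a log2 fold change beyond 0.5 with an unadjusted p under 0.01, 2 without the filter on low counts (with CDH1) and 2 with scaling by library totals (with CDH2), the last chosen after the data were seen. Leaving out 1 library gave 0 to 1, and the 1 without DMSO replicate 1 was CDH2. Over all genes, 5364 calls became 2740 without BLU6864 replicate 2, 3136 without BLU6864 replicate 1, 6932 without DMSO replicate 2 and 2981 at the fold and p thresholds above. Among the lists, DESeq2 called 0 of the epithelial-state regulators lower (against 2) and 1 intermediate filament gene higher (against 3), and those thresholds called 2 partners of SNAIL and ZEB lower (against 8), 1 catenin-complex gene lower (against 6), 1 cadherin lower (against 2), 1 filament gene in each direction (against 3 and 4), 1 EPCAM partner higher (against 3) and 3 thyroid markers lower (against 5). Where 1 library of a group was left out, the other was assumed to vary like the remaining group. The replicate block gave 5963 calls, with 1 member higher and 4 lower. The deviations of same-numbered libraries correlated at 0.23 over 12696 genes, but the labels do not say that a number marks a shared culture, so the block is only an alternative. Of 909 alternative values for the 76 named genes (FOXA2, CNN1 and VWF could not be fitted in 1 alternative), 830 kept direction or lack of a call, 73 lost a call and 6 gained one. The cause was not tested. Depth limits CDH1 and EPCAM, where counts of 0 to 11 reads per library allow only wide intervals.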
